A study of Homo sapiens with 8 samples.

Results

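The genes described here make cholesterol and fatty acids. They are 36 of the 20294 genes in the count table and were taken from it by symbol, a rule that uses no measured value, although the list was drawn up with earlier results of these data known. The sterol arm has 23 members, of which 18 are enzymes and 5 are regulators or a sterol carrier, and the fatty acid arm has 13. All 36 were in the table, and all 36 passed the filter on low counts. The cells were HSC-5, a human cutaneous squamous cell carcinoma line, which all groups share together with a stably expressed Cas9 nuclease and selection with G418. In 3 libraries each, the cells carried 1 of 2 guide RNAs against EZH2, sgEZH2-1 or sgEZH2-2, and in the 2 Control libraries they carried the empty vector. A further control, left out by the authors, was not used here. EZH2 is the catalytic subunit of the Polycomb repressive complex that methylates histone tails and silences genes. Nothing in the sources states that replicate libraries were grown as separate cultures, and the p-values measure the spread between these libraries, which may be technical. A guide and the cells that carry it cannot be told apart.

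Cholesterol is made from acetyl-CoA through mevalonate, farnesyl pyrophosphate, squalene and lanosterol. Transcription of these enzymes is driven by SREBP proteins, which are made as membrane precursors: when sterols are low, the escort protein SCAP carries them from the endoplasmic reticulum to the Golgi, where proteases release the active factor, and INSIG proteins hold SCAP back when sterols are plentiful. SREBF2 encodes the form known mainly for sterol synthesis and SREBF1 the forms known mainly for fatty acid synthesis. Keratinocytes make cholesterol, fatty acids and ceramides for the lipid barrier of the skin, and inherited defects of the sterol enzymes NSDHL and EBP cause skin disease.

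The stretches just before the transcription start, as placed by the RefSeq promoter table, are shown for 5 members. The best known signal of this gene set is a DNA element read by SREBP proteins together with neighbouring CCAAT and GC boxes. Each is 250 bases of the RefSeq promoter table (GRCh38.p14), plus strand, 5′ to 3′, ending at the base before the start: SREBF2 at chr22:41832855-41833104, NSDHL at chrX:152830813-152831062, FDPS at chr1:155308616-155308865, INSIG1 at chr7:155297628-155297877 and SCD at chr10:100346983-100347232. Capitals mark a sterol regulatory element (TCACNCCAC, in SREBF2), an E-box (CACGTG, in INSIG1) and CCAAT boxes, read as ATTGG where they lie on the other strand.
SREBF2: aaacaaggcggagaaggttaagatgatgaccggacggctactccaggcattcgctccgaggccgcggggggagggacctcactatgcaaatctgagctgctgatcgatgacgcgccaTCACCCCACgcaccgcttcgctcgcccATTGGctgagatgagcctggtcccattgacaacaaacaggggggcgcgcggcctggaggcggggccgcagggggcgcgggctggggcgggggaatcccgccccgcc
NSDHL: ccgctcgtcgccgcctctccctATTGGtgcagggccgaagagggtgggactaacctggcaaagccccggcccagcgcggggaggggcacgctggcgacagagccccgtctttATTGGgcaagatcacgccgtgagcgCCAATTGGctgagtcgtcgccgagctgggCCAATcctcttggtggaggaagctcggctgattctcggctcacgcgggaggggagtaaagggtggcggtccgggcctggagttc
FDPS: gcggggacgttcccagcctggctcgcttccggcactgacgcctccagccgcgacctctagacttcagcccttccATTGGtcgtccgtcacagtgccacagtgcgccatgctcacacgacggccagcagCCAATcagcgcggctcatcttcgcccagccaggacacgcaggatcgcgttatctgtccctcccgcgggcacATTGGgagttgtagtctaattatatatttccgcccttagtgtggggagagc
INSIG1: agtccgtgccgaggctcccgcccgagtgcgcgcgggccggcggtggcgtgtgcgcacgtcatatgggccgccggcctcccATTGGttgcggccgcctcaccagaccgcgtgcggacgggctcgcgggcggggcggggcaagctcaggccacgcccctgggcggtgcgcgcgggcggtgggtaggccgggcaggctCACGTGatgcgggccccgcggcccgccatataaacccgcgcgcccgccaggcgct
SCD: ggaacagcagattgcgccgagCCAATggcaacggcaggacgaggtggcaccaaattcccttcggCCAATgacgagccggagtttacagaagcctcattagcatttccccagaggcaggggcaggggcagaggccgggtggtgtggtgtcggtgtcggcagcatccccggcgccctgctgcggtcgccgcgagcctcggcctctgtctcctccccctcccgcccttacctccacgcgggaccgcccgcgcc
In SREBF2 the sterol regulatory element lay 133 to 125 bases before the start, with a CCAAT box at 106 to 102. NSDHL held 5 CCAAT matches, of which 2 overlap in the run written CCAATTGG. FDPS held 3 and SCD held 2. INSIG1 held 1, with an E-box 55 to 50 bases before the start.

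Of the 36 members, 32 had an entry in that table, and the entries of these were searched on both strands. CCAAT was present before the start of 24 of the 32 (75%), 16 of 20 in the sterol arm and 8 of 12 in the fatty acid arm, against 40.2% of 15843 protein-coding genes. The GC box GGGCGG was present in 30 of the 32 (93.8%) against 62.1% of those genes. TCACNCCAC was found in 1 of the 32, SREBF2, or 3.13% against 1.19%. CACGTG was found in 4 of the 32, INSIG1, SCAP, SC5D and ELOVL5, or 12.5% against 9.73%. A match is a run of letters and not a measured binding site. Only these exact runs were searched, with N as any base, so a missing match does not show that a site is absent. The 15843 genes were not filtered by expression, whereas all 36 members passed the filter on low counts, so the shares compare unlike sets. ACAT2, FDFT1, SQLE and FASN had no entry.

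Levels are given in CPM, in which every library is brought to one total after the edgeR adjustment of library sizes. The totals ran from 12.6 M to 15.5 M counts. EZH2 itself had 56.4, 56.3 and 48.01 CPM in the sgEZH2-1 libraries, 73.8, 67.5 and 65.1 CPM in the sgEZH2-2 libraries and 82.7 and 84.1 CPM in the Control libraries. The log2 fold change of EZH2 against Control was -0.64 with sgEZH2-1 (adjusted p = 0.000529) and -0.28 with sgEZH2-2 (adjusted p = 0.0699), so its transcript passed the test with sgEZH2-1. Reads from an edited EZH2 transcript are still counted, and protein was not measured. All 12 keratinocyte markers were detected above the filter, with summed levels of 5982 to 6711 CPM with sgEZH2-1, 6929 to 7131 CPM with sgEZH2-2 and 7199 to 7562 CPM in Control. Of these 12, 2 were lower and 3 higher with sgEZH2-1, and 5 lower with sgEZH2-2. Over all genes tested, 9.52% were lower and 11.3% higher with sgEZH2-1, and 2.5% lower and 6.18% higher with sgEZH2-2. The part of the keratinocyte markers in the results was not tested. Among 10 adipocyte and sebocyte markers, 3 passed the filter, and MOGAT1 and AWAT1 had 0 counts in every library. Of the 3, 1 was lower and 1 higher with sgEZH2-1, and 1 was higher with sgEZH2-2. The summed level of the list was 20.1 to 21.8 CPM with sgEZH2-1 and 16.2 to 19.6 CPM with sgEZH2-2. In Control it was 13.2 to 13.8 CPM. Of 9 fibroblast markers, 2 passed the filter, 1 of them higher with sgEZH2-2, and the list summed to 116 to 148 CPM with sgEZH2-1, 150.3 to 182 CPM with sgEZH2-2 and 157 to 167 CPM in Control. Leukocyte markers, 3 of 8 past the filter, summed to 14.8 to 18.9 CPM with sgEZH2-1, 12.03 to 14.03 CPM with sgEZH2-2 and 14.5 to 14.8 CPM in Control. Melanocyte markers, 3 of 6, summed to 30.6 to 33.1 CPM, 27.9 to 29.7 CPM and 28.9 to 30.8 CPM in the same order of groups, and endothelial markers, 2 of 6, to 1.98 to 2.73 CPM, 3.30 to 4.73 CPM and 3.85 to 4.19 CPM. COL1A2, CD3E, TYROBP, KDR, TYR and DCT of these lists were at 0 in every library. In such bulk RNA, fewer cells of a kind and less RNA per cell cannot be told apart.

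With sgEZH2-1, most of the set was lower than in Control, in both arms. The edgeR quasi-likelihood test, adjusted by Benjamini-Hochberg over 13124 genes at a threshold of 0.05, called 27 of the 36 members lower, against 9.52% of all genes tested, and 1 higher, against 11.3%. The calls were 19 lower of 23 in the sterol arm, and 8 lower and 1 higher of 13 in the fatty acid arm. In the sterol arm, 0 members were higher by edgeR, also at an unadjusted p under 0.05, and 0 by DESeq2. The median log2 fold change of the 36 was -0.46, against -0.01 for all genes. The libraries did not overlap for 30 members, of which 28 had all sgEZH2-1 libraries below both Control libraries, as did 24.2% of all genes, and 2 had all of them above, as did 23.7%.

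With sgEZH2-2, fewer members were lower, almost all of them sterol enzymes. The test called 9 of the 36 lower, against 2.5% of all genes tested, and 1 higher, against 6.18%. The lower ones were 8 sterol enzymes and ACLY, and SREBF1 was the higher one. The median log2 fold change of the 36 was -0.08, against 0.00 for all genes. The sgEZH2-2 libraries lay all below Control for 15 members (20.5% of all genes), all above for 6 (19.3%) and overlapped for 15. All 9 members called lower with sgEZH2-2 were also called lower with sgEZH2-1: ACAT2, FDPS, SQLE, LSS, CYP51A1, TM7SF2, NSDHL, EBP and ACLY. Among all genes tested, 1.01% were lower with each guide, and both comparisons share the same Control libraries.

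**Figure D1:**
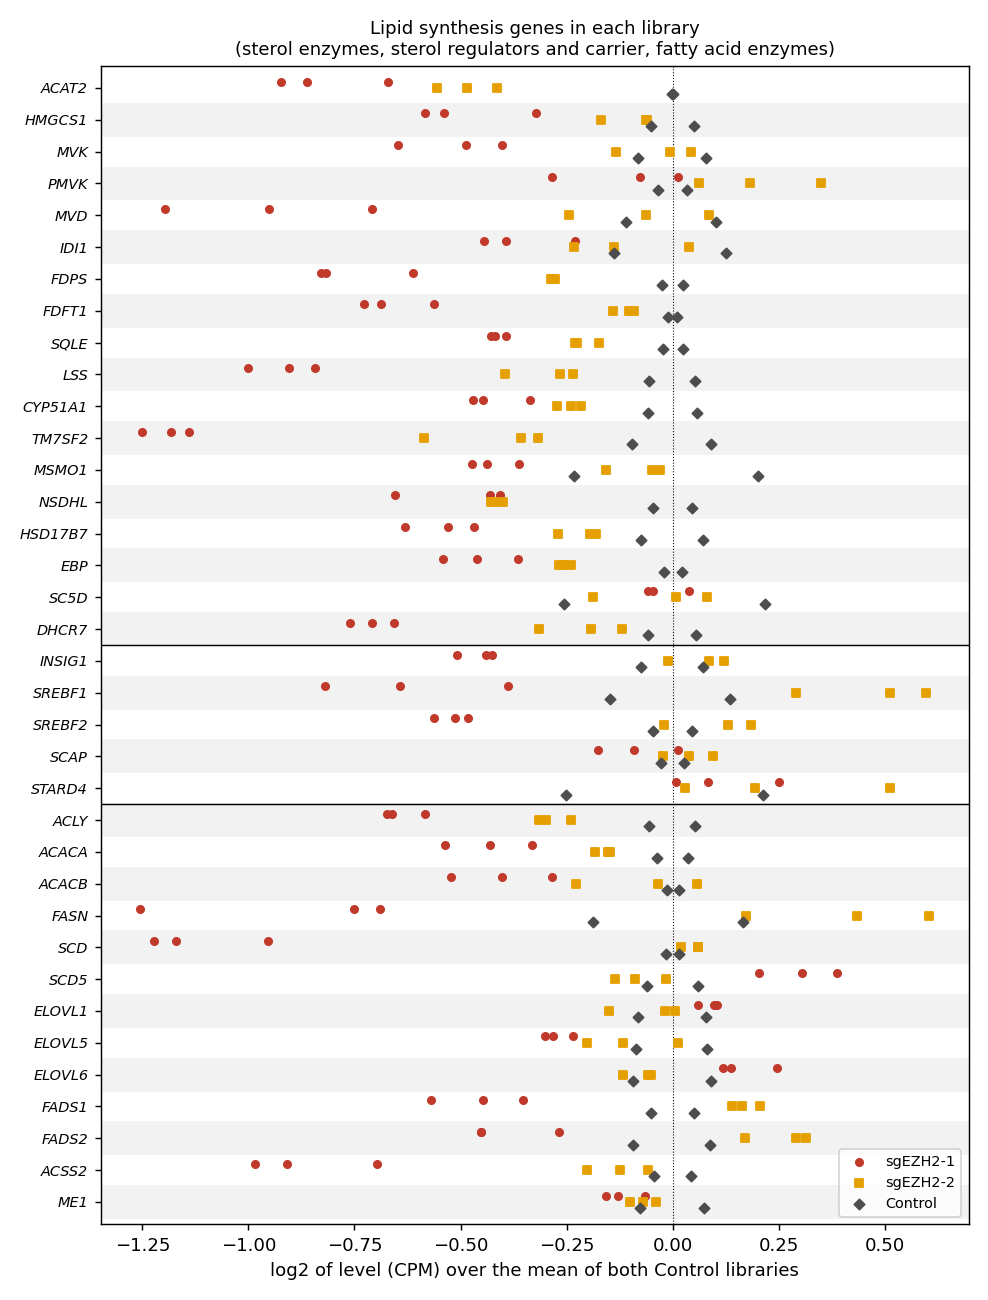
Level of each of the 36 members in each of the 8 libraries, 1 point a library, as the log2 ratio of CPM to the mean of the 2 Control libraries, with sterol enzymes at the top, regulators and the carrier in the middle and the fatty acid arm at the bottom. All sgEZH2-1 points lie left of both Control points for 28 members, and all sgEZH2-2 points for 15.

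Summed over the 18 sterol enzymes, the level was 2685, 2501 and 2527 CPM in the sgEZH2-1 libraries, 3324, 3295 and 3400.2 CPM in the sgEZH2-2 libraries and 3788 and 3886 CPM in the Control libraries. Every library of a group lay apart from those of the other groups, with sgEZH2-1 lowest and sgEZH2-2 in between. Summed over the fatty acid arm, it was 3714, 3579 and 3506 CPM in the sgEZH2-1 libraries, 6373, 6855 and 6746 CPM in the sgEZH2-2 libraries and 6463 and 6278 CPM in the Control libraries. There the sgEZH2-1 libraries were low and the sgEZH2-2 and Control libraries overlapped. SCD is the largest term of that sum in every library.

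**Figure D2:**
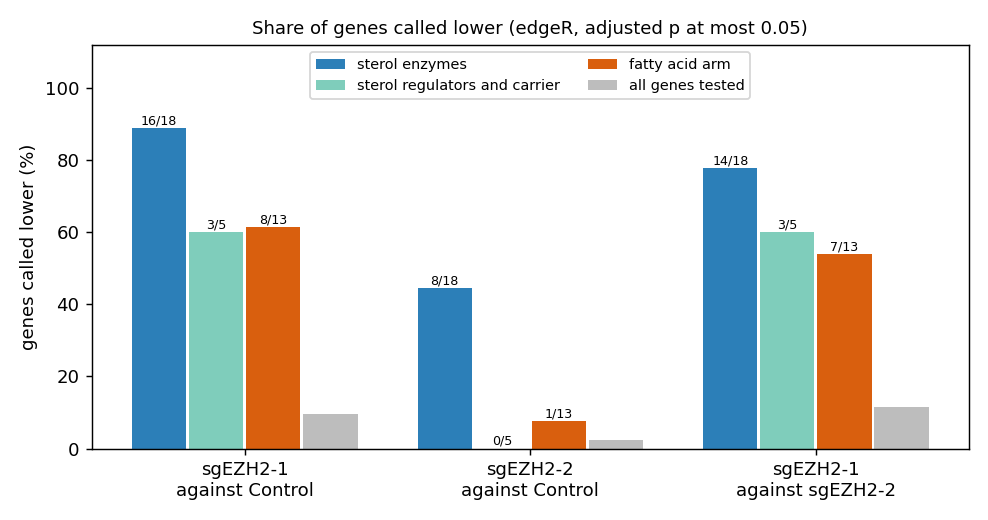
Share of tested genes called lower, in percent, for sterol enzymes, sterol regulators with the carrier, the fatty acid arm and all genes tested, in 3 comparisons, with the number called over the number of members above each bar. With sgEZH2-1 against Control 16 of 18, 3 of 5 and 8 of 13 are lower, and with sgEZH2-2 against Control 8 of 18, 0 of 5 and 1 of 13.

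The first sterol enzymes convert acetyl-CoA to farnesyl pyrophosphate, and 6 of 7 were lower with sgEZH2-1 and 2 of 7 with sgEZH2-2. ACAT2, the cytosolic thiolase that joins 2 acetyl-CoA units, had 153, 134 and 128 CPM in the sgEZH2-1 libraries, 174, 166 and 183 CPM in the sgEZH2-2 libraries and 244 and 243 CPM in the Control libraries. Both guides lay below Control in every library, and sgEZH2-1 below sgEZH2-2. Its log2 fold change was -0.82 (SE 0.07, adjusted p = 4.82e-05) with sgEZH2-1 and -0.48 (SE 0.07, adjusted p = 0.00259) with sgEZH2-2. ACAT2 shares 397 exonic bases with TCP1 and 1141 with SOD2 on the opposite strand, so its count is uncertain where reads were counted without strand. The same holds for the 13 other members that share exonic bases with a gene on the opposite strand, FDPS with RUSC1-AS1 (693 bases) and SREBF1 with RAI1 (556 bases) among them, and CYP51A1 shares 2844 bases with an annotated gene on its own strand. FDPS, which makes farnesyl pyrophosphate, had 342, 294 and 297 CPM in the sgEZH2-1 libraries, 428, 429 and 431 CPM in the sgEZH2-2 libraries and 532 and 513 CPM in the Control libraries. The same order held, and no group overlapped another. The FDPS change was -0.75 (SE 0.06, adjusted p = 3.31e-05) with sgEZH2-1 and -0.28 (SE 0.06, adjusted p = 0.023) with sgEZH2-2. The sgEZH2-2 call was lost without either Control library or any sgEZH2-2 library, at adjusted p up to 0.165.

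MVD, which decarboxylates mevalonate pyrophosphate, had 47.3, 56.1 and 66.4 CPM in the sgEZH2-1 libraries, 91.6, 115 and 104 CPM in the sgEZH2-2 libraries and 116 and 101 CPM in the Control libraries. The sgEZH2-1 libraries were all below the others, and the sgEZH2-2 libraries overlapped Control. The change of MVD was -0.94 (SE 0.13, adjusted p = 0.000839) with sgEZH2-1 and -0.07 (SE 0.13, adjusted p = 0.812) with sgEZH2-2. HMGCS1, the synthase before the mevalonate step, averaged 284 ± 28.3 CPM with sgEZH2-1, 369.7 ± 15.8 CPM with sgEZH2-2 and 395 ± 19.3 CPM in Control (SD, n = 3, 3 and 2, as in all means of the 3 groups here). It fell with sgEZH2-1, by 0.48 on the log2 scale (adjusted p = 0.00174), and had -0.10 (SE 0.08, adjusted p = 0.513) with sgEZH2-2, although all 3 of those libraries were below both Control libraries. Mevalonate kinase, MVK, averaged 48.7 ± 4.18 CPM with sgEZH2-1, 67.9 ± 4.25 CPM with sgEZH2-2 and 69.3 ± 5.43 CPM in Control, with a change of -0.51 (SE 0.09, adjusted p = 0.00285) with sgEZH2-1 and -0.03 (SE 0.09, adjusted p = 0.884) with sgEZH2-2. IDI1, the isomerase that supplies the second isoprene building block, averaged 202 ± 15.97 CPM with sgEZH2-1, 239.8 ± 23.3 CPM with sgEZH2-2 and 258 ± 33.2 CPM in Control and changed by -0.35 (SE 0.10, adjusted p = 0.0293) with sgEZH2-1 and -0.11 (SE 0.10, adjusted p = 0.582) with sgEZH2-2. The sgEZH2-1 call was lost without Control library 2, sgEZH2-1 library 2 or 3, or sgEZH2-2 library 3, at adjusted p up to 0.204. PMVK, phosphomevalonate kinase, was the one enzyme of this stretch called with neither guide: it had 10.2, 11.8 and 12.5 CPM in the sgEZH2-1 libraries, 14.1, 15.8 and 12.96 CPM in the sgEZH2-2 libraries and 12.7 and 12.1 CPM in the Control libraries, and -0.11 (SE 0.13, adjusted p = 0.585) with sgEZH2-1 and 0.20 (SE 0.12, adjusted p = 0.38) with sgEZH2-2.

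The 3 enzymes from farnesyl pyrophosphate to lanosterol were all lower with sgEZH2-1, and 2 of them with sgEZH2-2. LSS, which folds squalene epoxide into lanosterol, had 167, 178 and 186 CPM in the sgEZH2-1 libraries, 254, 284 and 278 CPM in the sgEZH2-2 libraries and 346 and 321 CPM in the Control libraries. The groups did not overlap, with sgEZH2-1 lowest. Its change was -0.91 (SE 0.07, adjusted p = 1.27e-05) with sgEZH2-1 and -0.30 (SE 0.07, adjusted p = 0.0212) with sgEZH2-2, and the sgEZH2-2 call was lost without Control library 1 or sgEZH2-2 library 1 or 3, at adjusted p up to 0.157. FDFT1, squalene synthase and the first step committed to sterols, had 263, 235 and 241 CPM in the sgEZH2-1 libraries, 352, 361 and 364 CPM in the sgEZH2-2 libraries and 391 and 386 CPM in the Control libraries. Here too each guide lay below Control, and the change was -0.66 (SE 0.05, adjusted p = 2.64e-05) with sgEZH2-1 and -0.11 (SE 0.05, adjusted p = 0.259) with sgEZH2-2, so that only sgEZH2-1 passed the test. SQLE, the squalene epoxidase that controls flux after the mevalonate stage, had 200.1, 204 and 199 CPM in the sgEZH2-1 libraries, 229, 228 and 237 CPM in the sgEZH2-2 libraries and 263 and 272 CPM in the Control libraries. Its libraries were tight within each group, and the change was -0.41 (SE 0.05, adjusted p = 0.000199) with sgEZH2-1 and -0.21 (SE 0.05, adjusted p = 0.0195) with sgEZH2-2. The sgEZH2-2 call of SQLE was lost without either Control library, sgEZH2-1 library 2 or sgEZH2-2 library 1 or 2, at adjusted p up to 0.107.

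Of the 8 enzymes that turn lanosterol into cholesterol, 7 were lower with sgEZH2-1 and 4 with sgEZH2-2. TM7SF2, a sterol reductase that acts after lanosterol demethylation, had 13.05, 12.4 and 13.4 CPM in the sgEZH2-1 libraries, 19.7, 23.7 and 23.1 CPM in the sgEZH2-2 libraries and 31.5 and 27.7 CPM in the Control libraries. Its mean with sgEZH2-1 was 43.8% of Control, the lowest share among the 36 members. The change was -1.19 (SE 0.10, adjusted p = 3.71e-05) with sgEZH2-1 and -0.42 (SE 0.10, adjusted p = 0.0288) with sgEZH2-2. With the offset for GC content described below, the sgEZH2-1 change was -1.08 for TM7SF2 and -1.09 for SCD, so TM7SF2 was no longer the lowest. The sgEZH2-2 call of TM7SF2 was lost without Control library 1, sgEZH2-1 library 2 or sgEZH2-2 library 1 or 3, and in a fit of only the groups compared, at adjusted p up to 0.212. NSDHL, a dehydrogenase needed to remove the methyl groups of lanosterol, had 71.3, 72.4 and 61.03 CPM in the sgEZH2-1 libraries, 71.4, 71.7 and 72.8 CPM in the sgEZH2-2 libraries and 99.1 and 92.9 CPM in the Control libraries. Its guide libraries overlapped each other and lay below Control, with a change of -0.49 (SE 0.08, adjusted p = 0.0015) with sgEZH2-1 and -0.42 (SE 0.08, adjusted p = 0.00849) with sgEZH2-2. NSDHL differed between the guides by -0.08 (SE 0.07, adjusted p = 0.46), and a p that misses the threshold does not show equal levels. EBP, the sterol isomerase, had 143, 127 and 134 CPM in the sgEZH2-1 libraries, 154, 153 and 156 CPM in the sgEZH2-2 libraries and 187 and 182 CPM in the Control libraries. No group overlapped another, and the change was -0.45 (SE 0.06, adjusted p = 0.000473) with sgEZH2-1 and -0.26 (SE 0.06, adjusted p = 0.023) with sgEZH2-2. The sgEZH2-2 call of EBP was lost without either Control library or any sgEZH2-2 library, at adjusted p up to 0.158.

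CYP51A1, the lanosterol demethylase, averaged 177 ± 8.80 CPM with sgEZH2-1, 199 ± 3.93 CPM with sgEZH2-2 and 236 ± 13.3 CPM in Control and changed by -0.42 (SE 0.06, adjusted p = 0.000746) with sgEZH2-1 and -0.24 (SE 0.06, adjusted p = 0.0284) with sgEZH2-2. The sgEZH2-2 call of CYP51A1 was lost without either Control library, any sgEZH2-2 library or sgEZH2-1 library 2, at adjusted p up to 0.167. DHCR7, which makes cholesterol from dehydrocholesterol, the skin's vitamin D precursor, had 186, 199 and 192 CPM in the sgEZH2-1 libraries, 253, 275 and 289 CPM in the sgEZH2-2 libraries and 327 and 302 CPM in the Control libraries. Each group lay apart from the others, and the change was -0.71 (SE 0.07, adjusted p = 5.55e-05) with sgEZH2-1 and -0.21 (SE 0.07, adjusted p = 0.0807) with sgEZH2-2. HSD17B7, a keto reductase of the demethylation complex, averaged 22.5 ± 1.27 CPM with sgEZH2-1, 28.2 ± 0.949 CPM with sgEZH2-2 and 32.8 ± 2.35 CPM in Control, with -0.54 (SE 0.08, adjusted p = 0.00129) with sgEZH2-1 and -0.22 (SE 0.08, adjusted p = 0.146) with sgEZH2-2. MSMO1, the oxidase that begins removal of the methyl groups, had 171, 159 and 163 CPM in the sgEZH2-1 libraries, 216, 198 and 213 CPM in the sgEZH2-2 libraries and 187 and 253 CPM in the Control libraries. Its Control libraries stood far apart, and sgEZH2-2 overlapped them. The change was -0.42 (SE 0.10, adjusted p = 0.0165) with sgEZH2-1 and -0.08 (SE 0.10, adjusted p = 0.718) with sgEZH2-2. The sgEZH2-1 call was lost without Control library 2 or sgEZH2-1 library 2 or 3, at adjusted p up to 0.103. SC5D, the desaturase that makes dehydrocholesterol, had 128, 119.7 and 121 CPM in the sgEZH2-1 libraries, 132, 109 and 125 CPM in the sgEZH2-2 libraries and 104 and 145 CPM in the Control libraries. All groups overlapped, and the change was -0.02 (SE 0.12, adjusted p = 0.916) with sgEZH2-1 and -0.03 (SE 0.12, adjusted p = 0.924) with sgEZH2-2.

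Of the 5 regulators and carrier, 3 were lower with sgEZH2-1, both SREBP genes and INSIG1. With sgEZH2-2, 0 were lower by edgeR, also at an unadjusted p under 0.05, and 0 by DESeq2, and SREBF1 was higher. SCAP and STARD4 were called with neither guide. SREBF1 had 122, 138 and 164 CPM in the sgEZH2-1 libraries, 263, 324 and 306 CPM in the sgEZH2-2 libraries and 236 and 194 CPM in the Control libraries. The sgEZH2-1 libraries were lowest, Control was in the middle and sgEZH2-2 highest, with no overlap. The change was -0.60 (SE 0.13, adjusted p = 0.00823) with sgEZH2-1 and 0.47 (SE 0.13) with sgEZH2-2, where the adjusted p of 0.049997 was just under the threshold. Both calls depended on the Control libraries. Without Control library 1 they were -0.45 (adjusted p = 0.0915) and 0.63 (adjusted p = 0.0611), and without Control library 2 they were -0.74 (adjusted p = 0.0115) and 0.34 (adjusted p = 0.259). The sgEZH2-2 call was also lost without sgEZH2-2 library 2 or 3 and without sgEZH2-1 library 2.

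SREBF2 had 222, 229 and 234 CPM in the sgEZH2-1 libraries, 323, 371 and 358 CPM in the sgEZH2-2 libraries and 338 and 316 CPM in the Control libraries. Only the sgEZH2-1 libraries stood apart, and the change was -0.52 (SE 0.06, adjusted p = 0.000392) with sgEZH2-1 and 0.10 (SE 0.06, adjusted p = 0.405) with sgEZH2-2. INSIG1, which retains SCAP and is itself a target of SREBP proteins, had 151, 149.7 and 143 CPM in the sgEZH2-1 libraries, 215, 201 and 221 CPM in the sgEZH2-2 libraries and 193 and 213 CPM in the Control libraries. The pattern was that of SREBF2, with -0.46 (SE 0.06, adjusted p = 0.000654) with sgEZH2-1 and 0.07 (SE 0.06, adjusted p = 0.591) with sgEZH2-2. SCAP averaged 55.4 ± 3.64 CPM with sgEZH2-1, 60.3 ± 2.50 CPM with sgEZH2-2 and 58.7 ± 1.57 CPM in Control, with -0.08 (SE 0.07, adjusted p = 0.458) with sgEZH2-1 and 0.04 (SE 0.07, adjusted p = 0.817) with sgEZH2-2. STARD4, a cytosolic sterol carrier, averaged 69.4 ± 6.05 CPM with sgEZH2-1, 76.7 ± 13.3 CPM with sgEZH2-2 and 64.02 ± 14.4 CPM in Control and had 0.11 (SE 0.16, adjusted p = 0.651) with sgEZH2-1 and 0.26 (SE 0.16, adjusted p = 0.369) with sgEZH2-2.

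**Figure D3:**
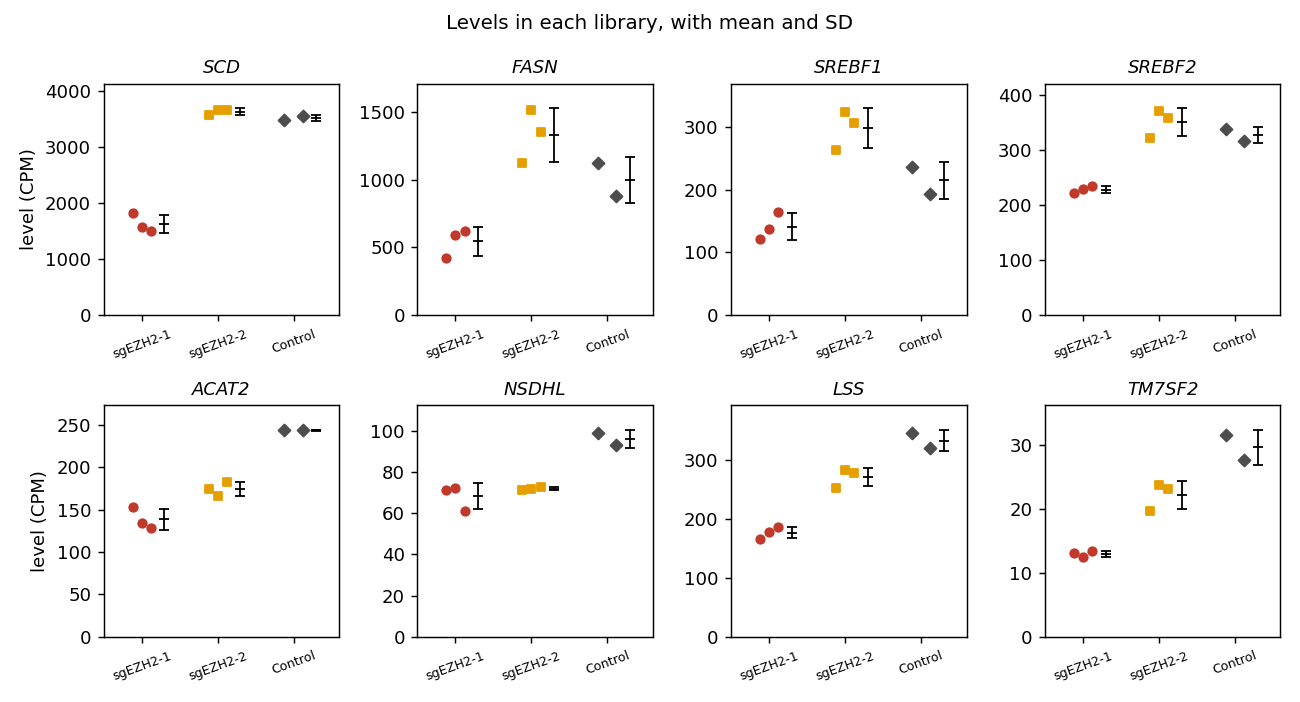
Level of 8 members in CPM in each library, with 1 point a library, the group mean and SD as a bar beside the points, and sgEZH2-1, sgEZH2-2 and Control from left to right. SCD and SREBF2 are low only with sgEZH2-1, SREBF1 and FASN are lowest with sgEZH2-1 and highest with sgEZH2-2, and ACAT2, NSDHL, LSS and TM7SF2 are below Control with each guide.

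In the fatty acid arm, 8 of 13 members were lower with sgEZH2-1, among them the enzymes that supply acetyl-CoA and the synthase that builds the chain, and 1 with sgEZH2-2. ACLY, which cleaves citrate to cytosolic acetyl-CoA, had 279, 294 and 277 CPM in the sgEZH2-1 libraries, 355, 359 and 374 CPM in the sgEZH2-2 libraries and 458 and 425 CPM in the Control libraries. No group overlapped another, and ACLY was the one member of the arm called lower with each guide: -0.64 (SE 0.05, adjusted p = 2.54e-05) with sgEZH2-1 and -0.28 (SE 0.05, adjusted p = 0.00849) with sgEZH2-2. ACSS2, which makes acetyl-CoA from acetate, had 198, 171 and 163 CPM in the sgEZH2-1 libraries, 279, 295 and 309 CPM in the sgEZH2-2 libraries and 331 and 312 CPM in the Control libraries. Both guides lay below Control, with -0.86 (SE 0.08, adjusted p = 6.03e-05) with sgEZH2-1 and -0.13 (SE 0.08, adjusted p = 0.393) with sgEZH2-2. ACACA, the carboxylase that makes malonyl-CoA, averaged 238 ± 16.8 CPM with sgEZH2-1, 287 ± 3.82 CPM with sgEZH2-2 and 321 ± 11.2 CPM in Control and changed by -0.43 (SE 0.06, adjusted p = 0.000774) with sgEZH2-1 and -0.16 (SE 0.06, adjusted p = 0.141) with sgEZH2-2. ACACB, the mitochondrial form of that carboxylase, averaged 6.98 ± 0.576 CPM with sgEZH2-1, 8.82 ± 0.878 CPM with sgEZH2-2 and 9.21 ± 0.123 CPM in Control and passed with neither guide, at -0.40 (SE 0.13, adjusted p = 0.0586) with sgEZH2-1 and -0.06 (SE 0.13, adjusted p = 0.836) with sgEZH2-2. ME1, which supplies reducing power, averaged 99.3 ± 3.25 CPM with sgEZH2-1, 103 ± 2.20 CPM with sgEZH2-2 and 108 ± 8.02 CPM in Control and also passed with neither, at -0.12 (SE 0.06, adjusted p = 0.218) with sgEZH2-1 and -0.07 (SE 0.06, adjusted p = 0.568) with sgEZH2-2.

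FASN, the synthase that assembles palmitate, had 418, 593 and 618 CPM in the sgEZH2-1 libraries, 1124, 1516 and 1348 CPM in the sgEZH2-2 libraries and 1119 and 875 CPM in the Control libraries. The sgEZH2-1 libraries were all below Control and the sgEZH2-2 libraries all above it, library 1 only just. The libraries of each group were spread widely, at a coefficient of variation of 20.1% with sgEZH2-1, 14.8% with sgEZH2-2 and 17.3% in Control. The change was -0.88 (SE 0.17, adjusted p = 0.00482) with sgEZH2-1 and 0.41 (SE 0.17, adjusted p = 0.18) with sgEZH2-2. Without Control library 1 the values were -0.69 (adjusted p = 0.0571) with sgEZH2-1 and 0.61 (adjusted p = 0.161) with sgEZH2-2. Without Control library 2 they were -1.04 (adjusted p = 0.00887) and 0.25 (adjusted p = 0.552).

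SCD, the desaturase that makes oleate and palmitoleate, had 1813, 1560.1 and 1505 CPM in the sgEZH2-1 libraries, 3557, 3659 and 3657 CPM in the sgEZH2-2 libraries and 3475 and 3548 CPM in the Control libraries. It lies at chr10:100347124-100364834, plus strand (GENCODE 29, hg38). The sgEZH2-1 libraries were all far below the others, at a mean of 46.3% of Control, and the sgEZH2-2 libraries lay just above Control. The change was -1.11 (SE 0.07, adjusted p = 4.96e-06) with sgEZH2-1 and 0.05 (SE 0.07, adjusted p = 0.755) with sgEZH2-2, and its call with sgEZH2-1 held in all 14 alternatives. SCD5, a second desaturase of the same substrates, had 53.96, 50.3 and 57.1 CPM in the sgEZH2-1 libraries, 39.7, 41.04 and 43.2 CPM in the sgEZH2-2 libraries and 41.9 and 45.5 CPM in the Control libraries. Its sgEZH2-1 libraries were all above the others, opposite to SCD, with 0.30 (SE 0.08, adjusted p = 0.0226) with sgEZH2-1 and -0.08 (SE 0.08, adjusted p = 0.607) with sgEZH2-2. The SCD5 call was lost without Control library 1 or sgEZH2-1 library 3 and in a fit of only the groups compared, at adjusted p up to 0.161.

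FADS1 and FADS2 desaturate polyunsaturated fatty acids, and FADS2 also makes sapienate, a fatty acid of human sebum. FADS1 had 84.3, 78.98 and 72.5 CPM in the sgEZH2-1 libraries, 119, 121 and 124 CPM in the sgEZH2-2 libraries and 104 and 111 CPM in the Control libraries. The order of the groups was that of SREBF1 and FASN, without overlap, and the change was -0.46 (SE 0.07, adjusted p = 0.00137) with sgEZH2-1 and 0.17 (SE 0.07, adjusted p = 0.18) with sgEZH2-2. FADS2 had 12.5, 12.5 and 14.2 CPM in the sgEZH2-1 libraries, 19.3, 20.9 and 21.3 CPM in the sgEZH2-2 libraries and 16.04 and 18.2 CPM in the Control libraries. The order was the same at a lower level, with -0.39 (SE 0.10, adjusted p = 0.024) with sgEZH2-1 and 0.26 (SE 0.10, adjusted p = 0.159) with sgEZH2-2, and the sgEZH2-1 call was lost without Control library 2 or sgEZH2-1 library 1 or 2, by DESeq2, and in 2 other alternatives, at adjusted p up to 0.141. The 2 genes share 490 exonic bases on opposite strands, so reads there are uncertain.

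Of the 3 elongases, 1 was lower with sgEZH2-1. With sgEZH2-2, 0 were lower by edgeR, also at an unadjusted p under 0.05, and 0 by DESeq2. ELOVL5, which lengthens polyunsaturated chains, averaged 182 ± 4.31 CPM with sgEZH2-1, 205 ± 15.6 CPM with sgEZH2-2 and 219.9 ± 18.02 CPM in Control, with -0.27 (SE 0.07, adjusted p = 0.0227) with sgEZH2-1 and -0.10 (SE 0.07, adjusted p = 0.467) with sgEZH2-2. The ELOVL5 call was lost without Control library 2 or sgEZH2-1 library 2 or 3, at adjusted p up to 0.149. ELOVL6, which lengthens palmitate, averaged 161 ± 7.65 CPM with sgEZH2-1, 136 ± 3.31 CPM with sgEZH2-2 and 143 ± 12.9 CPM in Control and had 0.17 (SE 0.07, adjusted p = 0.104) with sgEZH2-1 and -0.08 (SE 0.07, adjusted p = 0.562) with sgEZH2-2. ELOVL1, which makes very long saturated chains for ceramides, averaged 138 ± 2.34 CPM with sgEZH2-1, 125 ± 7.14 CPM with sgEZH2-2 and 129.6 ± 10.2 CPM in Control and had 0.09 (SE 0.07, adjusted p = 0.395) with sgEZH2-1 and -0.05 (SE 0.07, adjusted p = 0.702) with sgEZH2-2.

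The guides were also compared with each other. With sgEZH2-1 relative to sgEZH2-2, 24 of the 36 members were lower, against 11.5% of all genes tested, and 2 were higher, against 10.4%. The calls were 17 lower of 23 in the sterol arm, where 0 were higher by edgeR, adjusted or not, or by DESeq2, and 7 lower and 2 higher of 13 in the fatty acid arm. All 24 were also lower with sgEZH2-1 against Control, a comparison that uses the same sgEZH2-1 libraries. The libraries of the guides did not overlap for 30 members, with sgEZH2-1 all below for 27 (21.2% of all genes) and all above for 3 (21.0%). FASN differed by -1.29 (SE 0.15, adjusted p = 0.000406), SCD by -1.16 (SE 0.06, adjusted p = 3.59e-06) and SREBF1 by -1.08 (SE 0.12, adjusted p = 0.000217), and these were the differences of largest size among the 36. MVD, with -0.87, TM7SF2, with -0.77, and ACSS2, with -0.73, followed. This order shifted with the offset for GC content described below. SCD then had -1.18, FASN -1.01 and SREBF1 -0.81, followed by ACSS2 at -0.68, FADS1 at -0.62, and MVD and TM7SF2 at -0.58 each. SCD5 was higher with sgEZH2-1, by 0.38 (SE 0.07, adjusted p = 0.00451), as was ELOVL6, by 0.24 (SE 0.06, adjusted p = 0.0172). Among the members lower with each guide, CYP51A1 differed by -0.17 (SE 0.05, adjusted p = 0.0391), EBP by -0.20 (SE 0.05, adjusted p = 0.0239) and SQLE by -0.20 (SE 0.04, adjusted p = 0.00752). Of the others, TM7SF2 had -0.77, LSS -0.62, FDPS -0.47, ACLY -0.36 and ACAT2 -0.33, all of them called lower. NSDHL had -0.08 and was not called. Leaving out single guide libraries ended the calls of CYP51A1, EBP, MSMO1, HSD17B7 and ELOVL6, at adjusted p up to 0.150, 0.115, 0.0942, 0.0522 and 0.0721 in that order.

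Pooling all 6 guide libraries against Control, with the difference between the guides counted as spread, called 4 of the 36 members lower, against 0.594% of all genes tested, and 0 higher (also unadjusted, and by DESeq2), against 3.76%. They were ACAT2 at -0.64 (SE 0.12, adjusted p = 0.0155), CYP51A1 at -0.33 (SE 0.08, adjusted p = 0.0484), NSDHL at -0.45 (SE 0.08, adjusted p = 0.00798) and EBP at -0.35 (SE 0.08, adjusted p = 0.046). All 4 act in sterol synthesis, and 0 of the 13 fatty acid members were lower by edgeR, with 2 at an unadjusted p under 0.05 and 1 by DESeq2. All 6 guide libraries lay below both Control libraries for 15 members (9.77% of all genes) and above them for 0 (10.2%). Each of the 4 calls was lost when either Control library was left out. Of 13 alternatives, CYP51A1 lost its call in 9 and EBP in 7, whereas ACAT2 and NSDHL each lost theirs in those 2 only. The mean of both guides against Control, in the fit of 3 groups, called 19 members lower, against 4.59% of all genes tested, and 0 higher (also unadjusted, and by DESeq2), against 7.7%, with 15 in the sterol arm and 4 in the fatty acid arm.

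The calls differed in how far they depended on single libraries. Of the 27 members lower with sgEZH2-1, 21 kept the call in all 14 alternatives, among them leaving out each library in turn. The exceptions were IDI1, MSMO1, SREBF1, FASN, ELOVL5 and FADS2. Of the 9 members lower with sgEZH2-2, ACAT2 alone kept it. Without Control library 1, 1 sterol enzyme was called lower with sgEZH2-2, and without Control library 2 there were 4. NSDHL then had -0.36 (adjusted p = 0.0826) and -0.46 (adjusted p = 0.0323), and ACLY had -0.22 (adjusted p = 0.0908) and -0.34 (adjusted p = 0.0173). Without sgEZH2-2 library 1, 2 or 3 there were 2, 4 and 3 sterol enzymes, and without sgEZH2-1 library 2 there were 5.

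Divided by exon length (exon union of GENCODE 29, CPM per kb), the members covered a wide range of levels. In Control, SCD was highest, at 655 ± 9.63 CPM per kb (SD, n = 2). FDPS followed at 141 ± 3.44 CPM per kb and FASN at 107 ± 18.4 CPM per kb, and those 2 did not overlap. ACLY at 84.6 ± 4.47 and HMGCS1 at 84.1 ± 4.10 CPM per kb could not be ordered within their spread. FADS2 at 1.55 ± 0.137 and ACACB at 0.635 ± 0.00850 CPM per kb were the lowest. With sgEZH2-1, SCD remained the highest at 303 ± 30.6 CPM per kb, while FASN had 57.96 ± 11.6 CPM per kb, below FDPS at 83.6 ± 7.26 CPM per kb. With sgEZH2-2, FASN had 142 ± 20.96 CPM per kb, and FDPS had 116 ± 0.359 CPM per kb.

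Libraries of the same group differed from each other in a way that followed base composition, and some members sit at its ends. FASN, whose longest GENCODE 29 transcript is 65.3% G and C, was 0.56 higher on the log2 scale in sgEZH2-1 library 3 than in library 1, 0.43 higher in sgEZH2-2 library 2 than in library 1, and 0.35 higher in Control library 1 than in library 2. STARD4, at 34.2%, differed by -0.17, -0.48 and -0.46 in the same pairs. MVD and SREBF1 were higher in the same libraries as FASN, and SC5D and MSMO1 were lower there, as STARD4 was. Across the 36 members, Pearson's r between this difference and GC content was 0.699, 0.849 and 0.848 in the sgEZH2-1, sgEZH2-2 and Control pair, against 0.451, 0.388 and 0.438 across 12882 genes. The library pairs and this measure were chosen after values were seen, and genes of 1 library share its depth and preparation, so no p is given. Across the 36 members, r between GC content and the log2 fold change was -0.446 for sgEZH2-1 against Control, 0.181 for sgEZH2-2 against Control and -0.538 for sgEZH2-1 against sgEZH2-2. Across all 12882 genes it was -0.0880, 0.0601 and -0.244.

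With a GC offset for each library, an alternative added after seeing the data, 19 sterol members and 8 fatty acid members were lower with sgEZH2-1. Over all genes tested, in either direction, the offset gave 3871 calls with sgEZH2-1, against 2727 without it. With sgEZH2-2 it gave 2008, against 1139. Calls that members gained with the offset stand against these larger numbers. The 8 fatty acid members were not the same genes as before: FADS2 lost its call, at -0.29 (adjusted p = 0.0575), and ME1 gained one, at -0.19 (adjusted p = 0.00982). FASN then had -0.75 with sgEZH2-1 (adjusted p = 7.14e-07) and 0.27 with sgEZH2-2 (adjusted p = 0.00446), so that it passed as higher with sgEZH2-2. SREBF1 had -0.47 (adjusted p = 2.02e-05) and 0.34 (adjusted p = 0.000562). FADS1 had 0.21 with sgEZH2-2 and passed as higher (adjusted p = 0.025). MVD and DHCR7 joined the sterol enzymes lower with sgEZH2-2, at -0.22 (adjusted p = 0.00764) and -0.23 (adjusted p = 0.00545). SCD had -1.09 with sgEZH2-1 and 0.09 with sgEZH2-2, close to its values without the offset.

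**Figure D4:**
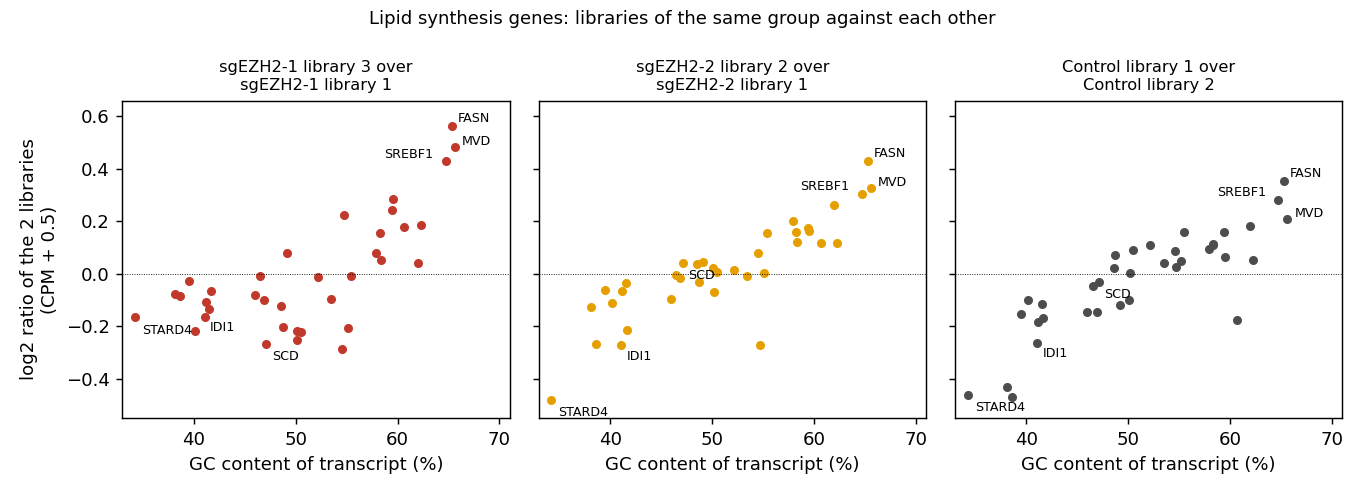
Log2 ratio between 2 libraries of the same group against the GC content, in percent, of the longest transcript, with 1 point a member, for sgEZH2-1, sgEZH2-2 and Control from left to right. In each panel FASN, SREBF1 and MVD lie at the upper right, and STARD4 lies at the left below 0.

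Genes next to the pathway were counted in the same way, and their counts stand against 9.52% lower and 11.3% higher of all genes with sgEZH2-1, and 2.5% lower and 6.18% higher with sgEZH2-2. Of 13 genes of the isoprenoid branch, which uses farnesyl pyrophosphate for prenylated proteins, dolichol and ubiquinone, 0 were lower by edgeR with either guide (unadjusted, 0 with sgEZH2-1 and 2 with sgEZH2-2) or by DESeq2, and 2 were higher with sgEZH2-1, RABGGTB at 0.35 (adjusted p = 0.00297) and PGGT1B at 0.45 (adjusted p = 0.0258). Of 9 tested genes of cholesterol sensing and SREBP processing, 2 were lower and 1 higher with sgEZH2-1, and 0 lower (2 unadjusted by edgeR, 0 by DESeq2) and 1 higher with sgEZH2-2. TMEM97, a sterol-regulated membrane protein, had -0.43 (adjusted p = 0.0017) with sgEZH2-1 and -0.19 (adjusted p = 0.117) with sgEZH2-2. MBTPS1, a protease that cuts SREBP precursors, had -0.32 (adjusted p = 0.00722) and -0.10 (adjusted p = 0.427). C12orf49 was the higher one with each guide, at 0.21 (adjusted p = 0.0457) and 0.24 (adjusted p = 0.0472). Of 18 tested genes of cholesterol uptake, esterification and efflux, 6 were lower and 3 higher with sgEZH2-1, and 1 lower and 5 higher with sgEZH2-2. VLDLR, a lipoprotein receptor, averaged 5.996 ± 0.574 CPM with sgEZH2-1, 7.13 ± 0.384 CPM with sgEZH2-2 and 1.08 ± 0.127 CPM in Control, a change of 2.45 (adjusted p = 2.29e-05) with sgEZH2-1 and 2.70 (adjusted p = 3.01e-05) with sgEZH2-2. ABCG1, a sterol exporter, averaged 4.27 ± 0.431 CPM with sgEZH2-1, 10.8 ± 0.213 CPM with sgEZH2-2 and 9.75 ± 2.08 CPM in Control, with -1.19 (adjusted p = 0.000597) and 0.16 (adjusted p = 0.591).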

How the data were processed

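RNA of 8 libraries was sequenced after TruSeq Stranded mRNA preparation, per the labels' protocols. The authors deposited raw read counts per gene, with no normalization. FastQC, STAR, DESeq and build hg38 are named, per the submitters' processing notes; for their versions, the counter, its gene models and its use of strand, the entry is: not given in the sources used here. The design text states that 1 control clustered apart and was left out by its authors; it was not used here. Columns name a group and no replicate, so library numbers are the order within a group. No pair of libraries agreed within sampling noise (chi-square per gene 2.16 to 9.85).

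From the counts, genes under the filterByExpr minimum of 10 were removed, which left 13124 of 20294 (3226 had 0 counts everywhere, and 0 columns were unused). Totals were scaled by TMM. The two-sided quasi-likelihood F test of edgeR 4.0.16 (R 4.3.3) was fitted to 3 groups, and to 2 levels for the pooled comparison, with Benjamini-Hochberg adjustment over all genes tested and a threshold of 0.05. SE were derived from F. The scripts were tested on simulated data with 200 changed genes. Of genes changed 1.5-fold, 55.2% were recovered for sgEZH2-1 against Control and 67.2% for sgEZH2-2 against Control. Of genes changed 4-fold, 98.5% and 95.5% were recovered. A member that was not called may therefore still have changed by a small amount. Exon lengths and GC content came from GENCODE 29 (12882 tested genes, 98.2%, lowess span 0.3), which may not be the authors' annotation. The members and lists were chosen with earlier results of these data known. All members are named, and from each further list at most 4 genes past the threshold with the smallest adjusted p; the text prints part of them. Alternatives were DESeq2 size factors, upper-quartile factors, no filter, DESeq2 1.42.0, only the groups compared, each library left out, and the GC offset.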

Additional observations from a re-analysis of the deposited data

Results flagged for a closer look

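For 26 of the 36 members the change with sgEZH2-1 and the change with sgEZH2-2 differed by a test of the difference itself, the contrast of sgEZH2-1 with sgEZH2-2 by edgeR. Of the 26, 24 were lower with sgEZH2-1, against 11.5% of all genes tested, and 2 were higher, against 10.4%. The values that follow are log2 differences, sgEZH2-1 over sgEZH2-2. Among sterol enzymes up to farnesyl pyrophosphate they were -0.33 for ACAT2, -0.38 for HMGCS1, -0.48 for MVK, -0.87 for MVD and -0.47 for FDPS. From farnesyl pyrophosphate to lanosterol they were -0.55 for FDFT1, -0.20 for SQLE and -0.62 for LSS. After lanosterol they were -0.17 for CYP51A1, -0.77 for TM7SF2, -0.35 for MSMO1, -0.33 for HSD17B7, -0.20 for EBP and -0.50 for DHCR7. The regulators had -0.52 for INSIG1, -1.08 for SREBF1 and -0.62 for SREBF2. In the fatty acid arm they were -0.36 for ACLY, -0.27 for ACACA, -1.29 for FASN, -1.16 for SCD, -0.62 for FADS1, -0.65 for FADS2 and -0.73 for ACSS2, with sgEZH2-1 higher for SCD5 at 0.38 and ELOVL6 at 0.24.

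EZH2 itself differed in the same contrast by -0.36 (adjusted p = 0.00844). Whether that difference has a part in those of the members was not tested.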

How the results depend on the processing

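No call of a member changed direction in any alternative. Most counts of calls by arm stayed within 1.5 times of those reported. Those that did not were the following. Leaving out 1 library at a time, members lower with sgEZH2-2 ran from 1 to 8 in the sterol arm and from 0 to 1 in the fatty acid arm, and members higher from 0 to 1 in the sterol arm. Fatty acid members higher ran from 0 to 2 with sgEZH2-1 against Control and from 1 to 2 with sgEZH2-1 against sgEZH2-2. In the pooled comparison, members lower ran from 0 to 5 in the sterol arm and from 0 to 1 in the fatty acid arm. Fatty acid members higher with sgEZH2-1 numbered 0 when the fit held only the groups compared. With upper-quartile scaling, 2 sterol members were lower in the pooled comparison, and DESeq2 called 1 fatty acid member lower there. With the GC offset, fatty acid members higher numbered 3 with sgEZH2-1 and 2 with sgEZH2-2, and 7 were lower for the mean of both guides. Over all genes, the GC offset gave 2008 calls with sgEZH2-2, against 1139, and 2596 for the mean of both guides, against 1612. Leaving out 1 library at a time, calls over all genes ran from 1373 to 2591 with sgEZH2-1 (2727 with all libraries), 521 to 1364 with sgEZH2-2, 1521 to 2994 between the guides (2874), 145 to 510 for the pooled comparison (572) and 727 to 1765 for the mean. The lowest came without Control library 1 with each guide and for the mean, without Control library 2 for the pooled comparison and without sgEZH2-2 library 2 between the guides. The shares over all genes printed beside the members' counts move with them. The causes of these shifts were not tested; a left-out library also leaves fewer samples.

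The Control group has 2 libraries, after 1 was left out by the authors, and leaving out either of them ended 21 and 17 member calls over the 5 comparisons, against at most 16 for any guide library. ACACB, at 6.41 to 9.59 CPM, has the lowest counts of the members. No paired analysis was possible because the columns carry no replicate number.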

Other observations

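Lists of fatty acid metabolism beyond the 36 members were counted as well. Over all genes tested, 9.52% were lower and 11.3% higher with sgEZH2-1, and 2.5% were lower and 6.18% higher with sgEZH2-2. Of 20 tested genes that serve fatty acid synthesis and are not members, 5 were lower and 2 higher with sgEZH2-1, and 2 lower and 2 higher with sgEZH2-2. SLC25A1, the carrier that exports citrate for ACLY, had -0.57 (adjusted p = 0.000774) with sgEZH2-1 and -0.03 (adjusted p = 0.855) with sgEZH2-2. PGD, which supplies reducing power from the pentose phosphate pathway, had -0.48 (adjusted p = 0.00016) and -0.21 (adjusted p = 0.033). ELOVL4, the elongase of the ultra-long chains of skin ceramides, averaged 8.72 ± 0.576 CPM with sgEZH2-1, 4.07 ± 0.239 CPM with sgEZH2-2 and 1.39 ± 0.253 CPM in Control, and was higher by 2.64 (adjusted p = 9.79e-06) and 1.54 (adjusted p = 0.000911).

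Of 22 tested genes of acyl-CoA formation, glycerolipids and lipid droplets, 7 were lower and 6 higher with sgEZH2-1, and 0 lower (0 unadjusted by edgeR, 0 by DESeq2) and 4 higher with sgEZH2-2. FABP5, the epidermal fatty acid binding protein, averaged 15.4 ± 0.409 CPM with sgEZH2-1, 8.60 ± 0.305 CPM with sgEZH2-2 and 4.25 ± 0.112 CPM in Control, with 1.85 (adjusted p = 5.21e-06) and 1.02 (adjusted p = 0.000593). Of 21 tested genes of fatty acid oxidation, 9 were lower and 1 higher with sgEZH2-1, and 0 lower (6 unadjusted by edgeR, 0 by DESeq2) and 1 higher with sgEZH2-2. CPT1A, which admits fatty acids to mitochondria, had -0.41 (adjusted p = 0.000392) with sgEZH2-1 and -0.13 (adjusted p = 0.163) with sgEZH2-2. CPT2 of the same shuttle had -0.40 (adjusted p = 0.00164) and 0.08 (adjusted p = 0.479).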
